A study of Mus musculus with 14 samples.

Results

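Stitched clusters of H3K27ac peaks were examined in the embryonic mouse retina. Peaks on the same chromosome were joined when less than 12.5 kb lay between them, and joined regions of 3 or more peaks were kept. This gave 309 clusters holding 1098 of the 13463 peaks (8.16%), which covered 9.16% of the summed peak length and 8.68% of the summed signal. The members were selected on the called positions of the peaks, and the clusters were ranked by their number of peaks and by summed signal, the sum over peaks of length times pileup. Peak number, spacing and summed signal are therefore described without a test.

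The study profiled open chromatin, RNA and chromatin marks around loss of the homeodomain factor Lhx2 in embryos at day 14 (E14) and in pups at day 2 (P2). Only the E14 H3K27ac chromatin immunoprecipitation was used here, from retinas of the CD1 strain. The treatment text shared by the samples of the series names Lhx2 deletions, whereas the title and characteristics of this sample name none. The assay comprised 2 replicate libraries, pooled by the authors into 1 peak list, and 1 isotype control library. No value therefore has a replicate error, and no comparison with other samples was made. The labels name the cells as retinal progenitor cells, whereas the methods describe whole dissected retinas for this assay. The retinal markers Pax6, Six3, Six6, Rax, Lhx2, Sox2, Hes1 and Hes5 each had a peak at or within 1000 bp of an annotated transcription start (TSS). Of the 5 to 7 markers listed for each of retinal pigment epithelium, lens, endothelium and blood, 1 had such a peak, and for microglia, periocular mesenchyme and surface ectoderm 0 did. Atoh7, Isl1 and Pou4f2, genes of newly born retinal ganglion cells, also had a peak, whereas Pou4f1, Pou4f3, Ebf1, Ebf2 and Eomes had none. All are from a list of 83 retinal transcription factors and related regulators, of which 54 had a peak. In whole tissue, a mark carried by more cells and a stronger mark in each cell cannot be told apart.

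Acetylation of lysine 27 of histone H3 (H3K27ac) marks the nucleosomes of active promoters and active enhancers, the latter lying at any distance from the gene they act on. Enhancers of genes that define a cell's identity often lie in dense groups, and joining neighbouring peaks is the usual way to find such groups. The same joining also collects the promoters of genes that merely sit side by side, so the place of each member relative to a TSS has to be examined.

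The clusters were divided by that place. A peak more than 1000 bp from any TSS of the GENCODE vM1 annotation (mm9) was called distal, and the others promoter peaks. Clusters with 2 or more distal peaks, here called distal clusters, numbered 94 (30.4%), a count that fell to 4 when only peaks with at least 4-fold enrichment over the control and a q value no higher than 0.001 were joined. In 196 clusters (63.4%) at most 1 peak was distal and at least 2 peaks could each be given a gene of their own; these are called promoter clusters. The remaining 19 clusters (6.15%), such as that at Ptch1, the Hedgehog receptor, had promoter peaks of 1 gene only. Of these, 16 also held 1 distal peak. Among the member peaks 331 (30.1%) were distal, beside 21.2% of all peaks.

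The sequences at the centres of 7 member peaks are shown to give the kinds of DNA that carry the clusters. They come from the promoter clusters with the largest summed signal (Mllt10 and the Hist1h array), from distal clusters high in the same order (Zic2, Gm14486/Gm14488 and Tbx2), and from the Lhx2 and Six3 loci, the last pair chosen after their values were seen. Each is the 300 bases at the midpoint of the promoter or distal peak with the most signal in its cluster, plus strand of mm9, 5′ to 3′. Capitals mark matches on either strand to 7 short patterns. These were the homeodomain core TAATTA, the E-box CAGCTG, the cyclic AMP response element (CRE) TGACGTCA, the GC box GGGCGG, the CCAAT box CCAAT, the AP-1 site TGANTCA and the Sox core ACAAAG. Matches of different patterns did not overlap within these windows.
Mllt10 cluster, promoter peak, chr2:17969311-17969610: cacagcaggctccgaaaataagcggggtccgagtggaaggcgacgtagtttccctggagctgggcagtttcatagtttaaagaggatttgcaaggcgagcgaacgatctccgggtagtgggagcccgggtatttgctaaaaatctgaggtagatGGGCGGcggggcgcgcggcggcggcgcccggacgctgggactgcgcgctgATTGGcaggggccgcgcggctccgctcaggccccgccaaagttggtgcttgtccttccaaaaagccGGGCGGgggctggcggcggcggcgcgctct
Hist1h cluster, promoter peak, chr13:23666746-23667045: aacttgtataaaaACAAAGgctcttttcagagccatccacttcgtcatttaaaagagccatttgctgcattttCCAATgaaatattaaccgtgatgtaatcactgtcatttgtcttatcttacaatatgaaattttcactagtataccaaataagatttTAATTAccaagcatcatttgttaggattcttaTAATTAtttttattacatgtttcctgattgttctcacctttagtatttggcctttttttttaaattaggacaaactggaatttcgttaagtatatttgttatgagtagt
Zic2 cluster, distal peak, chr14:122853035-122853334: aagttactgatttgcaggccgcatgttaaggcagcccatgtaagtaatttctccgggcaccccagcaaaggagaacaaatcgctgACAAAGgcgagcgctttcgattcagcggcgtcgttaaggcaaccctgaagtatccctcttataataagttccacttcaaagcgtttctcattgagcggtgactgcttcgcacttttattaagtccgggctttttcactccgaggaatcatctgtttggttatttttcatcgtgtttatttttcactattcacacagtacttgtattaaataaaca
Gm14486/Gm14488 cluster, distal peak, chr2:30549101-30549400: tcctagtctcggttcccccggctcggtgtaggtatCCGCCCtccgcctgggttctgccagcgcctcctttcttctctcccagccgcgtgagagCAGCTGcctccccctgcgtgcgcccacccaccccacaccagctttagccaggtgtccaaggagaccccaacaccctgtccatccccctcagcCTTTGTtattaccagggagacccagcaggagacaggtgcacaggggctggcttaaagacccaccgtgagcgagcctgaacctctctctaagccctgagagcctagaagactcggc
Tbx2 cluster, distal peak, chr11:85656076-85656375: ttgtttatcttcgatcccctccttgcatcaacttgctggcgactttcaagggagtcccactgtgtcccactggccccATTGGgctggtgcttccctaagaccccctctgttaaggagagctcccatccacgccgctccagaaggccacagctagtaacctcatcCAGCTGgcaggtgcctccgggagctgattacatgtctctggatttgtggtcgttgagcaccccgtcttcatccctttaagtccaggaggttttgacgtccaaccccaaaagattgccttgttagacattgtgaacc
Lhx2 cluster, distal peak, chr2:38211701-38212000: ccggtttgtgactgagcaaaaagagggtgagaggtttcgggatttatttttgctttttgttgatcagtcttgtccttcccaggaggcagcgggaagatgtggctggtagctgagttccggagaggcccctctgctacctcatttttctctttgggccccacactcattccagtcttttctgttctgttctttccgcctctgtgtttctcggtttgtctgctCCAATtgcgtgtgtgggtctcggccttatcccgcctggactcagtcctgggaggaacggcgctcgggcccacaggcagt
cluster upstream of Six3, distal peak, chr17:85887000-85887299: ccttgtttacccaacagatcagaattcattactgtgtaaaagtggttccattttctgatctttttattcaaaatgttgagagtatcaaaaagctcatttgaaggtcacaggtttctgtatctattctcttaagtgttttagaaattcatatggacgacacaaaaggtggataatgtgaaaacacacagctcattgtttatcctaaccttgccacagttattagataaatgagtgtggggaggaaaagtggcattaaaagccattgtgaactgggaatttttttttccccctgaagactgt

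The windows differed in composition. The Mllt10 window, in an exon of 2810030E01Rik, was 65.3% G and C and held the GC box 2 times and the CCAAT box 1 time. The Hist1h window, between histone genes, was 28.7% G and C and held the homeodomain core 2 times. The window 3′ of Tbx2 and that in an intron of Lhx2 were each 54% G and C, and the CCAAT box occurred in both. None of the 7 patterns was present in the window near Six3, which was 35.7% G and C.

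Over all 300-base windows, the GC box was present in 46.9% of members and 55.3% of all peaks, and the homeodomain core in 2.55% of members and 2.08% of all peaks. For the E-box the shares were 19.5% of members and 17.5% of all peaks, for the CCAAT box 25.9% and 23.1%, for the AP-1 site 5.01% and 3.67%, for the Sox core 16.6% and 16.6%, and for the CRE 1.18% and 1.58%. Place relative to a TSS moved these shares more than membership did, the GC box being present in 27.1% of all distal and 62.8% of all promoter peaks. Among distal peaks, the homeodomain core was present in 3.63% of the 331 members and 5.71% of the 2524 peaks in no cluster, and the Sox core in 26% and 31.9%. The CRE was absent from the windows of all 331 distal members and present in 29 of the 2524 other distal peaks. A match is a description of the letters in a window and not a binding site.

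Most clusters were small. Of the 309, 202 had 3 peaks, 71 had 4, 21 had 5, 8 had 6 and 4 had 7 peaks, and 1 cluster each had 8, 9 and 10 peaks. Outside them, 10071 peaks stood alone and 1147 regions were pairs. The clusters spanned 6909 to 56386 bp (median 19375 bp), and peaks covered a median of 20.8% of the span. The peak with the most signal held a median of 48.7% of its cluster's sum (range 18.5 to 87.4%), so that clusters ran from even rows of peaks to a main peak with minor neighbours.

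The 789 gaps inside clusters had a median of 6500 bp, from 1253 to 12447 bp, whereas neighbouring peaks over the whole list were a median of 59152 bp apart. Just inside the limit lay gaps of 12447 bp at Dennd2a, 12442 bp between Nup43 and Pcmt1, and 12430 bp between B230312A22Rik and Unc13b. Just outside it lay gaps of 12513 bp between Rab25 and Lamtor2, 12535 bp between Srsf9 and Gatc, and 12587 bp at Ski. The pileups flanking the first of these, 8.68 and 22.09 tags at Dennd2a, were much like those flanking the first excluded gap, 8.76 and 22.34 tags.

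Member peaks were slightly longer and weaker than the list as a whole. Their median length was 1084 bp (all peaks 1015 bp), their median pileup 14.3 tags (15.1) and their median fold enrichment over the isotype control 4.26 (4.46). The stricter limits of a 4-fold enrichment and a q value no higher than 0.001 were met by 646 members (58.8%), beside 64.1% of all peaks. Members of promoter clusters resembled other peaks, with a median pileup of 15.5 tags and 68.4% within those limits. Members of distal clusters had a median pileup of 12.1 tags, and 41.4% lay within the limits.

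Base composition followed the same division. Members had a median G and C content of 58.3% (all peaks 60.2%), and a ratio of observed to expected CpG of 0.64 (0.716). That ratio was 0.695 for promoter peaks of promoter clusters and 0.317 for distal peaks of distal clusters, against 0.757 and 0.336 for promoter and distal peaks in no cluster. Compared within the same place, the difference in height was small. Distal members of distal clusters had a median pileup of 10.9 tags and a median fold enrichment of 3.74, against 9.73 tags and 3.79 for the 2524 distal peaks in no cluster. Their median length was 1088 bp, and that of the distal peaks in no cluster 772 bp. Promoter peaks in distal clusters were also long, with a median of 1552 bp against 1068 bp for promoter peaks in no cluster, at a pileup of 15.6 against 16.3 tags. Length, not height, was where members of distal clusters stood apart in these medians, and length is part of the summed signal used for ranking.

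**Figure D1:**
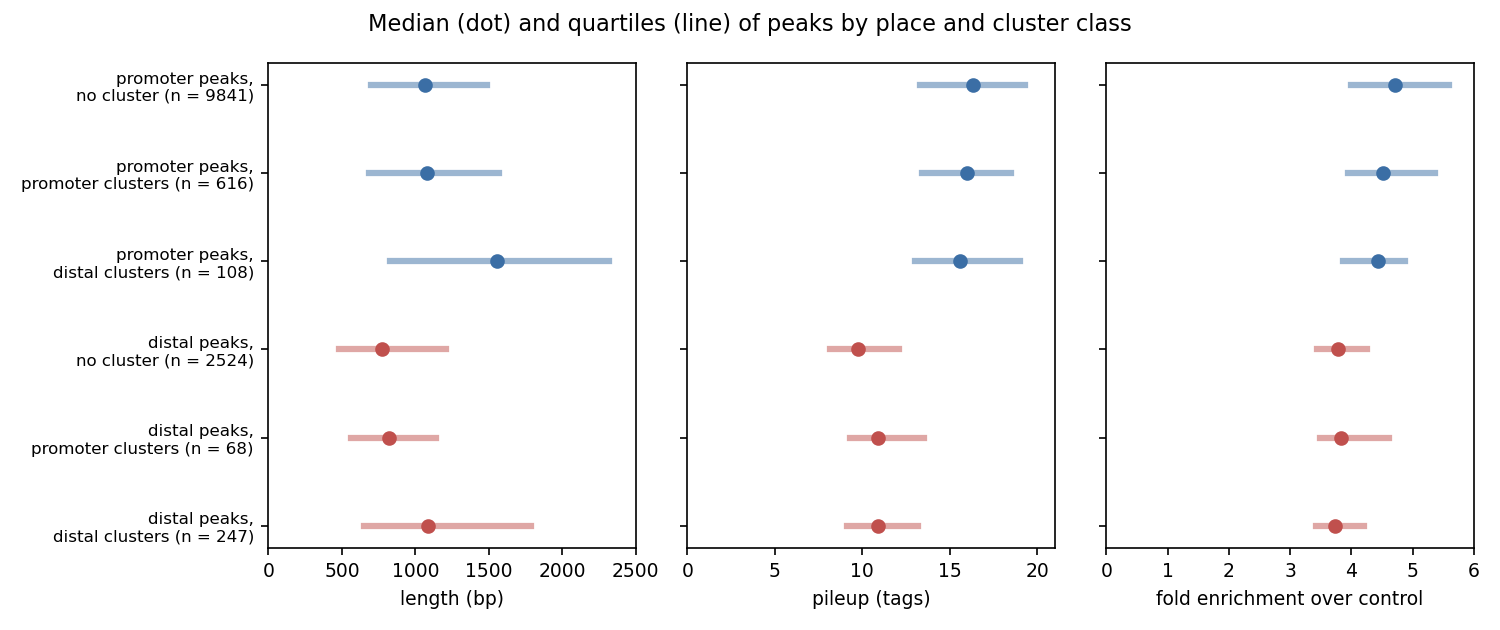
Length (bp), pileup (tags) and fold enrichment over the isotype control of promoter peaks (blue) and distal peaks (red), by the class of cluster they lie in, with the median as a dot and the quartiles as a line. Peaks of distal clusters are longer than peaks in no cluster (medians 1552 and 1088 bp against 1068 and 772 bp) at similar heights.

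The surroundings of the members were gene-rich on the whole. A median of 5 protein-coding genes had their start within 50 kb of a member peak, against 2 for all peaks. For promoter peaks in promoter clusters the median was 7, and for distal peaks in distal clusters 1, a contrast that the joining of near peaks and the sorting by distance to a TSS largely fix. A peak covering the promoters of 2 or more coding genes was found for 17.7% of promoter peaks in promoter clusters and 7.41% of those in distal clusters, against 12.4% of promoter peaks in no cluster. Clusters were also unevenly spread over chromosomes. Chromosome 11 held 42 clusters (3.54 per 10 Mb of known sequence), chromosome 17 held 26 (2.83) and chromosome 19 held 16 (2.75), whereas chromosome 16 held 2 (0.211) and the Y chromosome 0. On the autosomes, the share of peaks that were members ran from 1.44% on chromosome 16 to 14.1% on chromosome 17.

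The cluster with the largest summed signal, 356270 bp × tags, lay at chr2:17948240-17987359 over A930004D18Rik, 2810030E01Rik and Mllt10, the last encoding a chromatin-binding partner of the histone methyltransferase Dot1l. Its 6 peaks had pileups of 22.02, 11.16, 16.96, 15.26, 16.76 and 26.19 tags in genome order. The highest lay at a start site of Mllt10, and the longest (6387 bp) at 2810030E01Rik. Only the peak with 16.96 tags, 1326 bp from a TSS, counted as distal, so the cluster was classed with the promoter clusters. Among all 11527 stitched regions it ranked 3 by summed signal, after single peaks of 479500 bp × tags at Pax6 and 370290 bp × tags at Six3, which encode homeodomain factors of eye development. Of the first 100 stitched regions 56 were clusters, beside 309 of all 11527. Because the sum runs over all joined peaks, regions with more peaks rank higher by construction.

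**Figure D2:**
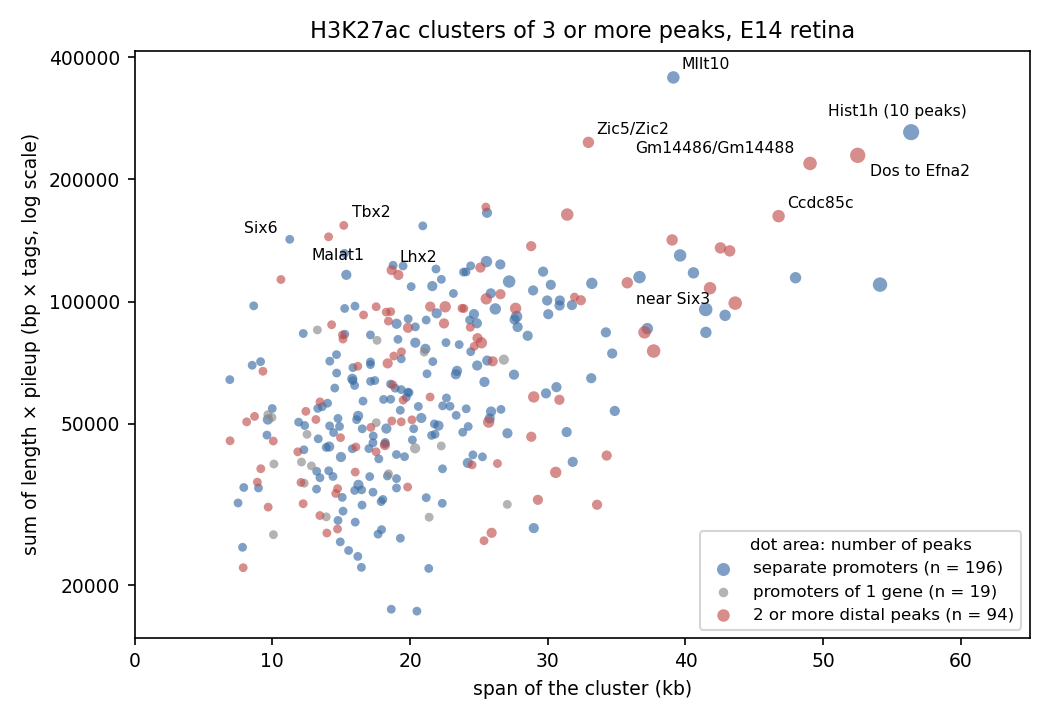
Span in kb against summed signal (length times pileup, log scale) for the 309 clusters, with dot area by number of peaks and colour by class. The Mllt10 cluster lies highest at 356270 bp × tags, and the Hist1h cluster of 10 peaks is the widest at 56386 bp.

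Replication-dependent histone genes formed the cluster with the most peaks. At chr13:23622074-23678459, 10 peaks took in the start sites of 15 coding genes from Hist1h4h to Hist1h4d, all but Gm17658 encoding core histones or the linker histone Hist1h1d. Their pileups were even, from 12.92 tags at Hist1h4d to 17.84 tags at Hist1h2ae/Hist1h2bg, and the largest peak held 18.5% of the signal, the lowest such share of any cluster. The last peak, in an exon of Hist1h2be, was the only distal peak, 2953 bp from a TSS. A neighbouring cluster at chr13:23830305-23855890 (4 peaks, seventh by summed signal) held Hist1h1c, Hist1h1a and further core histone genes, with pileups of 16.19, 15.67, 15.81 and 17.88 tags. In all, 4 clusters with 20 peaks held Hist1h genes, at pileups of 12.92 to 19.34 tags, and 13 of the 20 reached the stricter limits.

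The 9-peak cluster at chr10:79601349-79653854 ran from Dos and Atp5d, the latter a subunit of ATP synthase, through Midn and Cirbp, a cold-inducible RNA-binding protein, to Efna2, an ephrin ligand. The Midn peak was 5167 bp long at 22.75 tags and held 51.3% of the signal. Cirbp had 3 peaks at or near its start sites, of 10.59, 19.74 and 9.68 tags. Although classed as distal through 2 peaks 4499 and 10765 bp from a TSS (11.09 and 12.69 tags), this cluster was made mainly of the promoters of neighbouring genes. The division by 2 distal peaks therefore does not exclude clusters of promoters.

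Promoter peaks alone made up 2 further clusters with 7 or more peaks. At chr9:107436383-107490509, 8 promoter peaks lay at Tmem115, Cyb561d2/Nprl2, Rassf1, Tusc2, Hyal2, Hyal3/Nat6 and Ifrd2, a group that includes hyaluronidases, with pileups from 9.77 to 18.67 tags and no distal peak. At chr7:148620278-148661745, 7 promoter peaks lay at Slc25a22 through Rplp2, a ribosomal protein, to Cd151 and Tspan4, both tetraspanins, with 9.88 to 18.75 tags. These clusters ranked 41 and 68 by summed signal. Of the first 10 clusters by summed signal 6 were also among the first 10 by peak count, but 3 of these only because the 8 clusters of 6 peaks were placed by their summed signal. Of the first 10 by summed signal 7 were distal clusters, beside 30.4% of all clusters, but clusters with more peaks can more easily hold the 2 distal peaks that define the class.

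Among promoter clusters the number of coding genes was most often 3 (63 clusters), followed by 2 (46) and 4 (45), and 128 of the 196 had no distal peak at all. Altogether 758 of 22380 protein-coding genes (3.39%) had a TSS within 1000 bp of a member peak, whereas 49.8% had one within 1000 bp of any peak. Of the coding genes with a peak, 6.8% were thus at a member. At member peaks of distal clusters there were 94 genes (0.42% of all coding genes). Histone and ribosomal protein genes were frequent in promoter clusters. Of 67 replication-dependent histone genes 33 (49.3%) were at member peaks, and of 76 cytosolic ribosomal protein genes 15 (19.7%), or 52.4 and 19.7% of the 63 and 76 that had any peak. None of either family lay in a distal cluster. The 15 ribosomal protein genes were spread over 15 clusters, with pileups from 12.13 to 22.72 tags (median 18.7), the highest at Rpl36.

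**Figure D3:**
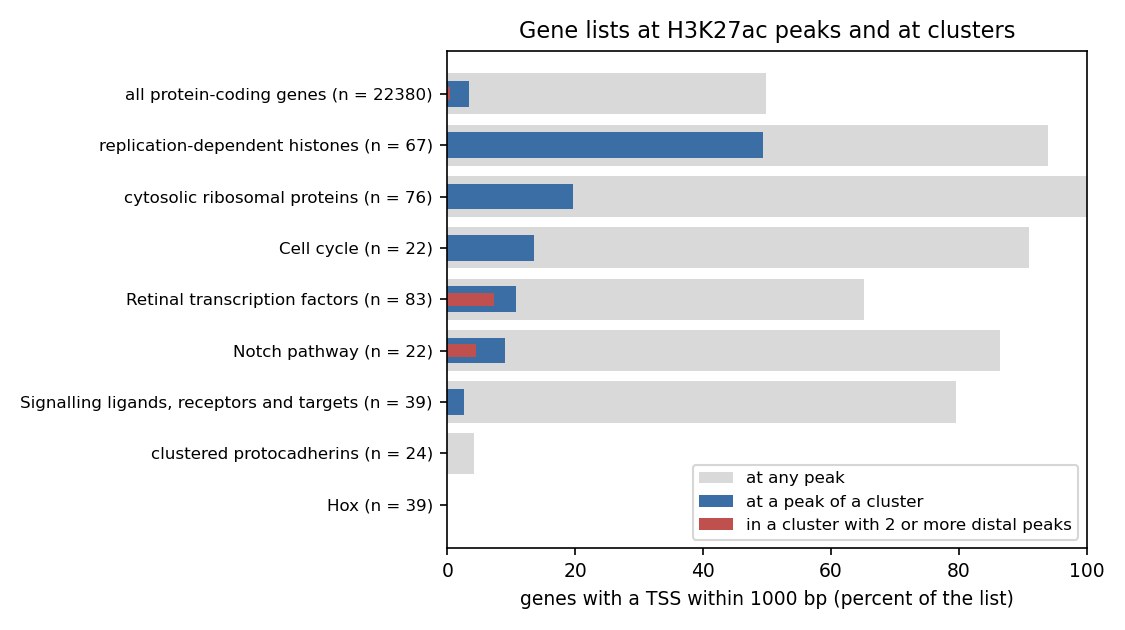
Percent of the genes of each list with a TSS within 1000 bp of any peak (grey), of a peak of a cluster (blue) and of a peak of a distal cluster (red). Histone genes reach 49.3% at clusters and 0% at distal clusters, and retinal transcription factors 10.8% and 7.23%.

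Hox and clustered protocadherin genes, families that also lie side by side in the genome, were almost without peaks. Of 39 Hox genes 0 had a peak and of 24 clustered protocadherin genes 1 did, beside 49.8% of all coding genes, so their absence from clusters carries nothing further. Of 22 listed cell cycle genes 20 had a peak and 3 were at member peaks, which is 15% of those with a peak, beside 6.8% of all coding genes with a peak. All 3 were in promoter clusters, as were 646 of the 758 coding genes at member peaks. Cdk4, the cyclin D-dependent kinase, had a peak of 24.14 tags between March9 and Tspan31. Mcm7, a subunit of the replicative helicase, had 18.39 tags, and Pcna, the sliding clamp of DNA polymerase, 15.69 tags.

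Retinal transcription factors and related regulators were present in both classes of cluster. Of 83 such genes 54 had a peak, 9 were at member peaks (10.8%, beside 3.39% of all coding genes) and 6 of these were in distal clusters (7.23%, beside 0.42%). Of those with a peak 16.7% were at members, beside 6.8%. The 6 were Zic2, Tbx2, Id3, Lhx2, Mab21l2 and Ebf3. Six6, Nr2f1 and Hes5 were in promoter clusters with 1 distal peak each. When only peaks within the stricter limits were joined, 4 of the 9 were still at member peaks and 0 were in a distal cluster. The list was compiled with earlier results of these data known, so these shares are a description and not a test. The other 45 genes with a peak, among them Pax6, Six3, Sox2 and Rax, had it outside clusters.

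Zic5 and Zic2, zinc-finger genes of which Zic2 acts in retinal axon guidance, shared the cluster ranked 3, the highest of the distal clusters (chr14:122849381-122882329, summed signal 246570 bp × tags). Its 5 peaks had pileups of 12.99 tags at Gm5089, 11.67 tags between genes, 19.99 tags at Zic5, 18.65 tags over Zic2 and 11.55 tags beyond the end of Zic2, 3281 bp from the nearest annotated start of a Zic2 transcript. The promoter peaks at Zic5 and Zic2 were thus the highest, and the 6167 bp peak over Zic2 held 46.6% of the signal. The fold enrichments of the distal pair were 3.22 and 4.05.

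At Tbx2, a T-box gene of the dorsal retina, 3 peaks lay at chr11:85643082-85658266. The promoter peak was 5515 bp long at 14.08 tags. An intronic peak had 11.79 tags, and a 4081 bp peak at and beyond the 3′ end, the one whose sequence is shown, had 14.04 tags. Promoter and downstream peaks were therefore equally high, and their fold enrichments were 4.56 and 4.63.

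Lhx2 itself, the LIM homeodomain gene whose loss the study examined, carried 4 peaks at chr2:38194783-38213445. In genome order the pileups were 18.35 tags at the upstream start site, 13.3 tags in an intron, 19.24 tags at an internal start site and 12.5 tags in an intron 2205 bp from a TSS. The start sites were higher than the introns, without overlap. Fold enrichments were 5.69, 4.95, 5.29 and 3.41, so that the first 3 reached a value of 4. The cluster ranked 27 by summed signal.

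The locus of Six3 was arranged differently. Six3 had a single broad peak of 370290 bp × tags outside any cluster, and a cluster of 5 distal peaks lay 123233 to 158097 bp from its TSS, at chr17:85853941-85889715. Their pileups were 8.55, 10.34, 15.33, 7.96 and 12.34 tags, and the peak nearest Six3, 5130 bp long, held 56.9% of the signal. No annotated TSS lay within 1000 bp of any of them, and Six3 was the nearest protein-coding gene to each. Assignment by distance does not show which gene such a cluster acts on.

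Six6, the other Six family gene of the eye on the list, had 3 peaks at chr12:74038474-74049735. The peak at its TSS had 20.15 tags, and a distal peak of 4952 bp with 17.3 tags held 60.2% of the signal. With only 1 distal peak it was counted among the promoter clusters, although most of its signal was distal. Nr2f1, an orphan nuclear receptor, had pileups of 17.33, 21.68, 14.33 and 8.83 tags over 4 peaks, of which only the last was distal. The gene that placed each among the promoter clusters was a neighbouring or overlapping transcript, 4930447C04Rik at Six6 and the non-coding A830082K12Rik at Nr2f1.

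**Figure D4:**
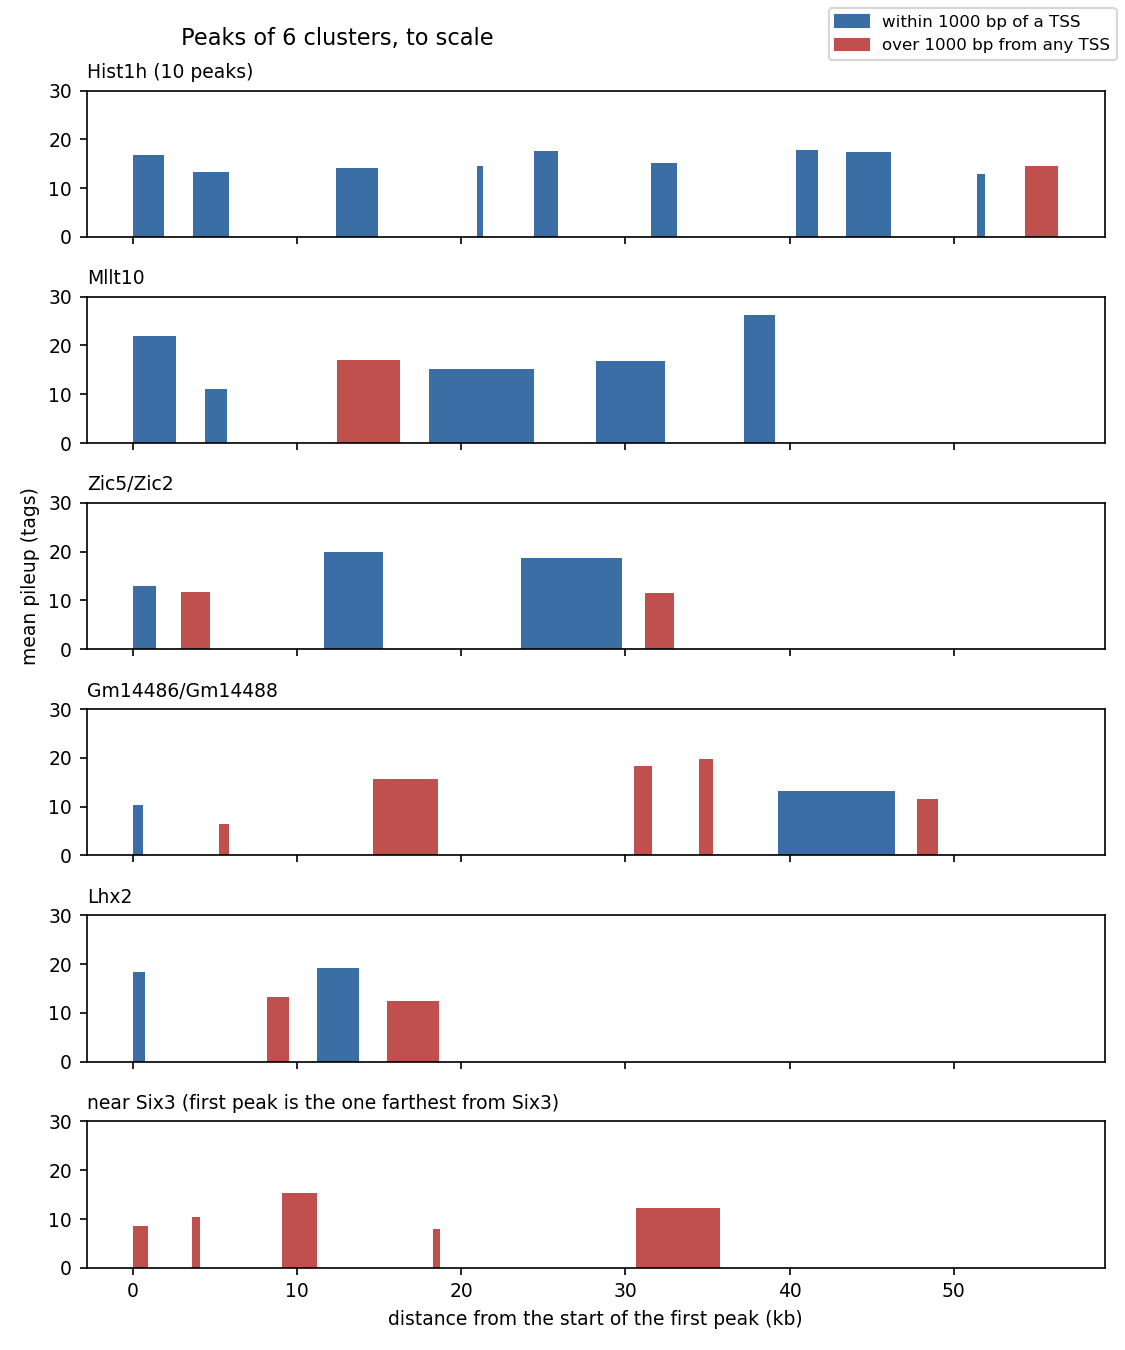
Peaks of 6 clusters drawn to scale, with distance from the start of the first peak in kb and pileup in tags as the height, in blue for promoter peaks and red for distal peaks. The Hist1h cluster has 10 peaks of 12.92 to 17.84 tags, whereas all 5 peaks of the cluster near Six3 are distal, at 7.96 to 15.33 tags.

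Other distal clusters high in either order lay within genes. Ccdc85c, which encodes a protein of apical junctions in neural progenitors, had 6 peaks at chr12:109477485-109524245. Its promoter had the highest pileup, 16.14 tags, and the distal peaks had 14.66, 12.6, 8.17 and 12.7 tags in introns and 12.76 tags outside the gene, 8673 to 33585 bp from a TSS. The intronic peaks were poor in CpG, with ratios from 0.165 to 0.276 against 0.782 at the promoter. Zmynd8, a reader of acetylated histones, had 6 peaks at chr2:165683052-165714462, of 13.05, 9.87, 7.61, 10.43, 12.62 and 15 tags. Of these, 4 lay at start sites of annotated Zmynd8 transcripts, the longest being 6213 bp with 56.9% of the signal. The CpG ratio at this longest peak was 0.279.

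Further distal clusters held promoters of more than 1 gene along with distal peaks. Ptms, a nuclear protein gene, and Mlf2 had promoter pileups of 20.07 and 22.56 tags, with distal peaks of 16.97 tags in an exon of Lag3 and 16.76 tags beside Ptms. Fosb, a subunit of AP-1, and Ercc1, a DNA repair endonuclease subunit, had 13.83 and 16.21 tags and 4 intergenic peaks of 13.92, 11.74, 16.25 and 8.78 tags between them. At Bbc3, an apoptosis gene, 6 peaks ran from Prr24 and Ccdc9 (13 and 21.79 tags) over distal peaks of 16.13 and 7.38 tags to 16.8 and 19.19 tags at Bbc3. Both distal peaks at Ptms/Mlf2 were lower than both promoters, whereas at Fosb/Ercc1 and at Bbc3 the heights of distal and promoter peaks overlapped.

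Among the clusters of 7 peaks, that from Narfl to Fbxl16 (chr17:25903332-25946941) had promoter pileups of 12.76, 12.98, 15.21, 12.26 and 18.41 tags and distal ones of 8.58 and 8.97 tags. Here the promoters were all higher than the distal peaks. The cluster from Spint2, a protease inhibitor gene, to Dpf1 (chr7:30066342-30104027) had promoter pileups of 16.78, 17.35, 9.27 and 11.81 tags and distal ones of 9.17, 11.54 and 10.77 tags, which overlapped. It ranked 110 by summed signal; its peaks were short, from 318 to 2796 bp.

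Id3, a helix-loop-helix inhibitor that lacks a DNA-binding region, and E2f2, a cell cycle transcription factor that was not on the cell cycle list, shared 5 peaks on chromosome 4. Pileup was 12.93 tags over a 5273 bp peak at Id3 and 17.89 tags at E2f2, while the distal peaks between them had 10.36 and 6.54 tags and a peak at a U6 gene upstream of Id3 had 16.89 tags. Mab21l2, a gene required for eye growth that lies inside Lrba, had 20.5 tags at its start and 7.59, 10.26 and 9.72 tags at 3 distal peaks in Lrba introns. The cluster near its relative Mab21l1, in introns of Nbea 25373 to 39779 bp from the nearest annotated Mab21l1 start, was weaker, at 7.86, 8.14 and 8.41 tags. Ebf3 had 12.56 tags at its promoter and 11.96 and 9.33 tags at the flanking distal peaks.

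Of 22 listed Notch pathway genes 19 had a peak and 2 were at member peaks, which is 10.5% of those with a peak, beside 6.8% of all coding genes with a peak. Notch4, a Notch receptor gene that was not on the list, was also at a member peak. Hes5, a Notch effector, had 16.23 tags in a 3-peak cluster shared with Pank4, whose promoter was higher at 20.85 tags. Nrarp, a feedback inhibitor of the pathway, had 17.68 tags in a distal cluster with a lowest pileup of 12.81 tags. Of 39 listed genes of other signalling pathways 31 had a peak and 1 was at a member peak (3.23% of those with a peak). This was Ptch1, with 20.33 tags and 85.4% of its cluster's signal.

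Several distal clusters lay away from any coding promoter. Of the 94, 33 had no protein-coding TSS within 1000 bp of a peak. The fifth cluster by summed signal (chr2:30532639-30581684, 7 peaks, 218767 bp × tags) had only non-coding genes starting within 1000 bp of a peak. These were Gm14486, Gm14488 and an annotated microRNA gene, and the nearest protein-coding TSS was 70500 bp away. The pileups of this cluster were 10.39, 6.48, 15.73, 18.41, 19.67, 13.26 and 11.48 tags. The highest pair, both distal, were short and rich in G and C (65.3 and 69.6%), and the longest peak, 7103 bp at Gm14488, was lower. The CpG ratios of that pair, 0.72 and 0.769, were near the median of all promoter peaks (0.753) and above that of all distal peaks (0.335). Malat1, a nuclear long non-coding RNA, had 18.87 tags over 5828 bp and distal peaks of 11.47 and 11.32 tags. At 4930578M01Rik, with its first peak 14883 bp from the nearest annotated start of Tuba1a, which encodes a neuronal tubulin, 3 peaks had 11.95, 13.91 and 14.3 tags, and the 8502 bp middle peak held 69.2% of the signal.

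In 26 clusters every peak was distal. Their summed signal ran from 22114 to 113295 bp × tags (median 47722), against a median of 70845 for all distal clusters, and 10 of them lay within the body of 1 coding gene. A pair lay in introns of Msi2, an RNA-binding protein of neural progenitors, with pileups of 9.24 to 12.06 and 8.62 to 10.92 tags. Another lay within Casz1, a zinc-finger gene (7.46 to 11.07 tags). The strongest, near the histone demethylase gene Kdm6b, had 17.63 to 19.88 tags, but its nearest TSS was 1377 bp away, just beyond the limit for a promoter peak.

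In the 68 distal clusters that also had a promoter peak, the highest pileup lay at a promoter peak in 55 and the largest share of signal in 46. The 331 distal members fell in introns (148, 44.7%), exons (31, 9.37%) and intergenic sequence (152, 45.9%), with a median of 9333 bp to the nearest coding TSS. Distal peaks in no cluster were farther out, at a median of 25599 bp, with 55.2% intergenic. Since clusters also collect promoters, this distance is not independent of the joining.

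The distal clusters rested on weaker peaks than the promoter clusters. In 14 of 94 distal clusters 3 or more peaks reached the stricter limits and in 12 none did, whereas 90 of 196 promoter clusters had 3 or more such peaks and 5 had none. When only peaks within those limits were joined, 90 clusters remained in all, 81 of them promoter clusters and 4 distal, at Nrarp, Ccdc85c, Ercc1 and near Kdm6b. Ccdc85c kept 5 of its 6 peaks. The median -log10 q was 2.58 for distal peaks of distal clusters and 5.36 for promoter peaks of promoter clusters. Distal and promoter peaks in no cluster, at 2.42 and 5.76, also differed. Promoter peaks of distal clusters had a median of 4.82, lower than both other groups of promoter peaks.

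Joining peaks only across gaps under 5000 bp left 64 clusters, of which 25 were distal, and 102 of the 758 coding genes (13.5%). Of the 9 retinal regulators 8 remained (all but Zic2), beside 9 of 33 histone and 2 of 15 ribosomal protein genes. Under the stricter peak limits 4 of the 9 remained (Lhx2, Nr2f1, Six6 and Zic2), none of them in a distal cluster, beside 35.5% of all coding genes in clusters. Under the same limits 18 of 33 histone and 4 of 15 ribosomal protein genes remained. With 4 or more peaks required, 5 of the 9 retinal regulators remained, beside 46.4% of all coding genes in clusters. Of the histone genes 24 of 33 then remained, and of the ribosomal protein genes 5 of 15. Histone genes thus stayed more often than retinal regulators under these settings, and less often under the 5000 bp gap. With 9 genes these shares are coarse, and they were not tested.

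**Figure D5:**
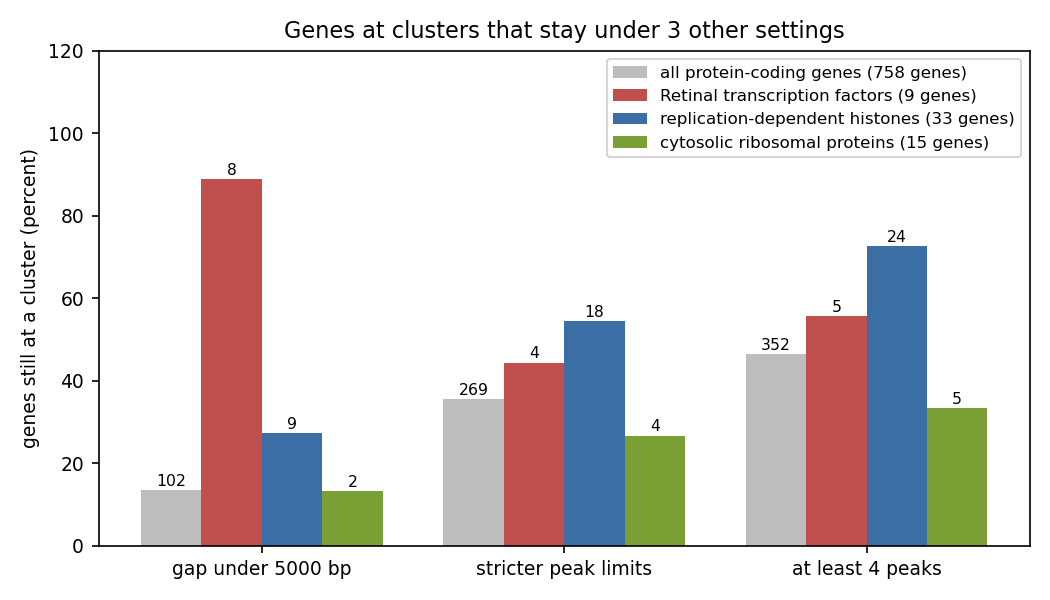
Percent of the coding genes at clusters that were still at a cluster under a smaller gap, stricter peak limits or a higher number of peaks, for all coding genes and 3 lists, with the number of genes above each bar. Under the 5000 bp gap 8 of 9 retinal regulators and 102 of 758 coding genes remained. Under the stricter limits 4 of 9 retinal regulators and 18 of 33 histone genes remained.

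Small RNA genes lay in some clusters. Of 1577 annotated microRNA genes 115 had a peak and 17 were at member peaks. These were 1.08% of all microRNA genes, below the 3.39% of coding genes, and 14.8% of those with a peak, above the 6.8% of coding genes with a peak. The Mir9-2 cluster (chr13:83869135-83885134, 3 peaks) had 2 peaks in a non-coding transcription unit, C130071C03Rik, and 1 beyond it, and the nearest coding TSS, that of Mef2c, was 205159 bp away. The peak at Gm17547 had 16.8 tags, that at Mir9-2 10.03 tags and the distal peak 10.29 tags. The mature forms of miR-9, abundant in neural progenitors, are given from RefSeq (table build GRCm38.p6), with the seed, bases 2 to 8, in capitals.
mmu-miR-9-5p: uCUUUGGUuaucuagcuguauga
mmu-miR-9-3p: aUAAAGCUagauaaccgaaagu

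The other microRNA genes in promoter clusters included Mir130a, whose peak of 17.58 tags lay in a cluster with Zdhhc5, Clp1 and Ypel4, Mir210 (12.85 tags) beside Rassf7, and Mir425 (18.98 tags) beside Impdh2 and Wdr6. In each of these the peak also lay in a cluster of coding promoters, so the mark cannot be given to the microRNA gene alone. Of 1552 snoRNA genes 119 had a peak and 26 were at member peaks. These were 1.68% of all and 21.8% of those with a peak, beside 3.39% and 6.8% of coding genes. Several snoRNA genes shared 1 cluster, such as SNORD25 to SNORD30 in that of Slc3a2 and Wdr74, so they are not separate cases. Distal clusters held 0 snoRNA genes, beside 0.42% of coding genes. snoRNAs are commonly encoded in introns of their host genes.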

How the data were processed

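Per the labels and the paper's methods, the authors aligned reads to mm9 with Bowtie2 and pooled both E14 replicates. Per the file headers, broad regions were called with MACS 2.1.0.20140616 (broad cutoff 0.1, q cutoff 0.05, at most 1 tag per position) from 113543038 ChIP and 9210563 control tags after filtering. The deposited pileup is the mean signal over a region after the larger library was scaled to the smaller. The deposited fold enrichment is the ratio of that pileup to a local background level estimated from the control library. The deposited -log10 p and -log10 q values are averages over the region, and the length is in bp. Heights are thus limited by the shallower control.

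Regions were joined, ranked and classed with Python 3.11.15 and plotted with matplotlib 3.10.9. Distances ran from the ends of a peak to the nearest transcript start of GENCODE vM1, and sequence came from NCBIM37 (mm9), in which all 13463 peaks lay within chromosome ends. Full values were given for clusters among the first 10 by peak count (ties by summed signal) or by summed signal, over all clusters and over distal clusters, and for genes of the lists at member peaks; further clusters were chosen after their values were seen. Tfap2a, Tfap2b and Spi1 were found under older symbols, and some genes are not reported by name here. The members and lists were chosen with earlier results of these data known. Joining, classing and pattern search were tested on simulated data, with 3994 of 3994 clusters and 700 of 700 planted patterns found. Alternatives were smaller and larger gaps, stricter peaks, more peaks per cluster, other distances and other measures of signal. Other samples of the series were not analysed here.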

Additional observations from a re-analysis of the deposited data

How the results depend on the processing

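The limits of these counts are those of 1 pooled list without replicate values, a shallow control and an annotation that defines distal peaks. No paired analysis was possible because the list pools both replicates in 1 set of values.

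With a gap under 5000 bp there were 64 clusters, 198 members, 25 distal and 36 promoter clusters and 102 coding genes (8 retinal regulators), and 5 of the first 10 by summed signal and 3 of the first 10 by peak count stayed. With a gap under 25000 bp these were 711, 2929, 213, 477 and 2266, with 4 and 4 staying and 16 retinal regulators in place of 9. With the stricter peaks they were 90, 299, 4, 81 and 269, with 6 and 4 staying and 4 retinal regulators. With at least 4 peaks they were 107, 492, 39, 66 and 352, with 5 retinal regulators. Leaving out peaks within 2500 bp of a TSS gave 33 clusters of 116 peaks, all 33 distal and 0 of promoters. Dividing summed signal by span kept 2 of the first 10, whereas using fold enrichment for pileup, or taking off the estimated control level, kept 9. The division into classes moved little with a limit of 2500 bp (77 distal and 209 promoter clusters), distances from the midpoint (105 and 186) or coding start sites only (109 and 179). Of the values compared, 34 differed from the reported value by more than 1.5 times and 11 did not.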

Other observations

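A pair of promoter clusters held no coding gene at all but repeated genes of spliceosomal RNAs. The U2 cluster on chromosome 11 had 3 peaks of 15.5 to 23.93 tags at U2 genes, and the U1 cluster on chromosome 12 had 4 peaks of 16.04 to 22.59 tags at U1 genes, covering 4.87% of its span of 28982 bp. These genes have near-identical copies, so that the values of each copy are uncertain.

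The cluster eleventh by summed signal, 153553 bp × tags on chromosome 17, took in Notch4, Gpsm3, Pbx2, Rnf5 and Agpat1, with 3 promoter peaks of 17.31 to 21.22 tags and fold enrichments up to 6.77. On the same chromosome, Ring1, a Polycomb component, shared 3 peaks of 20.86, 18.78 and 22.37 tags with Slc39a7 and Rxrb, a retinoid receptor.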
